A study of Mus musculus with 9 samples.

Results

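The rod phototransduction genes were followed in bulk RNA-Seq of the mouse neurosensory retina. They were the 9 rows of the deposited count table named Gnat1, Gnb1, Gngt1, Pde6a, Pde6b, Pde6g, Cnga1, Cngb1, and Sag, of 54532 gene rows in all. All 9 were found and all 9 passed the filter on low counts. The lowest count of a member was that of Cnga1 in treated OIR mouse 2, at 10435. None of the 9 genes differed past the test between any pair of groups.

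The retinas came from 9 wild type C57BL/6 mice aged P17, 3 to a group. Oxygen-induced retinopathy (OIR) is a model in which pups are kept in hyperoxia, which obliterates retinal vessels, and are then returned to room air at P12, when the retina becomes ischemic and forms new vessels. Control mice (1, 6, and 7) were raised in room air and are labelled as given DMSO, with no route or day given in the sources used here. OIR mice (3, 5, and 6) received 1 intraocular injection of the vehicle DMSO at P12. Treated OIR mice (2, 5, and 10) received 1 intraocular injection at P12 of 32-134D, an inhibitor of the hypoxia-inducible factors. The dose is 70 ng in the sample labels and 70 ng/µl in the treatment protocol. The comparisons ask whether the rod transduction genes differed in the ischemic retina, and whether they differed after injection of the inhibitor. OIR against control may also differ by an intraocular injection, which this design cannot tell apart from ischemia. Each library is 1 mouse, and whether 1 or both retinas of a mouse were pooled is not given in the sources used here.

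In rods, light-activated rhodopsin acts on the heterotrimeric G protein transducin, whose alpha subunit switches on a cyclic GMP phosphodiesterase. The phosphodiesterase lowers cyclic GMP, cyclic GMP-gated cation channels in the outer segment close, and the rod hyperpolarizes. Arrestin ends the signal by capping phosphorylated rhodopsin. Rods are the most numerous cells of the mouse retina, their outer segments mature during the postnatal weeks in which the OIR model is run, and they consume much of the oxygen that the retina uses. Bulk counts cannot tell fewer rods from less RNA per rod.

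Of the 9 genes, 3 encode subunits of rod transducin. Gnat1 encodes the alpha subunit (GRCm38 chromosome 9, 107674474 to 107679712, minus strand, 9 exon blocks). Gnb1, the beta subunit, lies on chromosome 4 (155491361 to 155559269, plus strand), and Gngt1, the gamma subunit, on chromosome 6 (3993792 to 3997436, plus strand). The rod phosphodiesterase has catalytic subunits encoded by Pde6a (chromosome 18, 61220482 to 61289924, plus strand) and Pde6b (chromosome 5, 108388391 to 108432397, plus strand) and an inhibitory gamma subunit encoded by Pde6g (chromosome 11, 120447605 to 120453500, minus strand). The channel is formed by Cnga1 (chromosome 5, 72603696 to 72644275, minus strand) and Cngb1 (chromosome 8, 95239045 to 95306585, minus strand). Sag, the rod arrestin, lies on chromosome 1 (87803680 to 87845158, plus strand). Of the 9, 3 overlap another annotated gene, namely Gnb1, Pde6a, and Cnga1, and in each case 0 exon bases are shared. Gnb1 is also made outside photoreceptors, so its counts are not those of rods alone.

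RefSeq promoter windows of 300 bases, from 250 before to 50 after the start on GRCm38.p6, were at hand for Gnb1, Gngt1, Pde6b, Cnga1, Cngb1, and Sag, and not for Gnat1, Pde6a, and Pde6g. Motifs were searched on both strands as TAATCC, the site of the photoreceptor homeodomain factor CRX, TGCTGA, part of the site of the rod factor NRL, and ACGTG and GCGTG, the core of the hypoxia response element. TAATCC stood in 4 of the 6 windows (Gngt1, Cnga1, Cngb1, and Sag), and in 7.06% of 32851 RefSeq windows of all genes. TGCTGA stood in 2 of 6 (Pde6b and Sag), against 19.5% of all windows. ACGTG and GCGTG were found in the window of Gnb1 alone among the 6, against 19.6% and 32.4% of all windows. A match is a string of letters and not a measured binding site.

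The 250 bases before the start are shown for 3 genes that differ in these motifs, 5′ to 3′ on the strand of the gene, with every match on either strand in capitals. Cngb1 (chr8:95306586-95306835, GRCm38.p6, minus strand) held TAATCC at 2 places, beginning 58 and 25 bases before the start. Sag (chr1:87803430-87803679, plus strand) held TGCTGA and also TAATCC, which reads as GGATTA on this strand. Gnb1 (chr4:155491111-155491360, plus strand), the gene used in many cell types, held neither, and held ACGTG at 1 place and GCGTG at 3 places, which read as CACGC on this strand. No capitals of different motifs overlap in these 3 sequences.
Cngb1: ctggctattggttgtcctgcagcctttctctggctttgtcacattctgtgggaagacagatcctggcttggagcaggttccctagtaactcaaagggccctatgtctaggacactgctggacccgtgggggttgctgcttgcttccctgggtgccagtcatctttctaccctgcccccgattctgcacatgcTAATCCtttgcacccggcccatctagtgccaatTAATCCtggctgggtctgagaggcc
Sag: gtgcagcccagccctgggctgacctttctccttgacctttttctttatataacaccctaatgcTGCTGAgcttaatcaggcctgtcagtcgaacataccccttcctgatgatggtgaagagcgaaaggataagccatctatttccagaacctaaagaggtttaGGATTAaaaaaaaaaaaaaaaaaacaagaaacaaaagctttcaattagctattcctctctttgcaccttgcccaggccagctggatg
Gnb1: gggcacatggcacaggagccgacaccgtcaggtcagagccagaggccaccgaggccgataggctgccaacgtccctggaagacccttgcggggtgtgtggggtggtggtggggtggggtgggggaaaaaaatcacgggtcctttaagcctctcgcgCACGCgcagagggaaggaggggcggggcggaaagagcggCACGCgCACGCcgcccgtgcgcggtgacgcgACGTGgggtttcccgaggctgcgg

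A library held 16864135 to 27213184 counts in controls, 18556723 to 21071371 in OIR mice, and 16028731 to 18560178 after treatment, so counting error is small for these genes and the spread among 3 mice sets the precision. Crystallin genes, which mark lens, made up 15.78% of the library of treated OIR mouse 2 and at most 0.1862% in the other 8 mice. The 9 rod genes together held 2.49% to 3.39% of the counts of those 8 mice and 1.95% of treated OIR mouse 2, or 2.31% once the crystallin counts were left out. Values without that mouse are given after the main results. Of the 4 rod markers used to check the tissue, Gnat1 and Pde6b are themselves among the 9 genes. The other two, the rod transcription factors Nrl and Nr2e3, were present in every mouse, at 266.0 to 566.0 RPKM for Nrl and 153.0 to 284.0 RPKM for Nr2e3 (counts scaled by library size and gene length).

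The levels of the 9 genes spanned a wide range, and their order was nearly the same in all mice. Per length, Gnat1 stood highest, at a mean of 3555 RPKM over the 9 mice and 2600 to 5032 RPKM in single mice, and it took 0.738% to 1.4% of all counts. Gnb1 followed at 1057 RPKM (819.2 to 1319) and Pde6g at 948.9 RPKM (706.2 to 1386), and these neighbours changed places between mice. Sag came next in every mouse, at 606.8 RPKM (463.9 to 695.9). The catalytic subunits Pde6a (332.3 RPKM, 260.2 to 387.2) and Pde6b (311.0 RPKM, 210.3 to 375.5), which form a dimer of 1 copy each, also changed places. Gngt1, at 247.1 RPKM (188.7 to 332.1), stood well below the other transducin subunits per length, and the channel subunits Cnga1 (122.6 RPKM, 102.0 to 154.9) and Cngb1 (89.73 RPKM, 80.56 to 101.8) were lowest in every mouse. This order depends on the deposited gene lengths, which were 3515 bases for Gngt1, 3029 for Gnat1, 4268 for Gnb1, and 8904 for Sag. Before division by length, Sag had more counts than Gnb1 in every mouse. The highest mouse exceeded the lowest by 1.26-fold for Cngb1 and by 1.96-fold for Pde6g, the extremes of the 9 genes.

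The transducin subunits overlapped between all groups. In log2 CPM (counts scaled to library size, with a prior count of 2), Gnat1 was 13.22, 13.42, and 13.90 in controls 1, 6, and 7. It was 13.60, 13.33, and 12.94 in OIR mice 3, 5, and 6, and treated OIR mice 2, 5, and 10 had 13.08, 13.52, and 13.30. Its highest value was in a control mouse and its lowest in an OIR mouse, and values of each group lay between those of the others. The log2 fold change of Gnat1 was −0.22 in OIR against control (SE 0.24, 95% interval −0.77 to 0.32, adjusted p = 0.611) and −0.23 in treated OIR against control (interval −0.77 to 0.32, adjusted p = 0.632). In treated OIR against OIR it was 0.00 (interval −0.54 to 0.54), which on the fold scale reached from 0.685 to 1.45.

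Gnb1 was 11.81, 12.08, and 12.46 log2 CPM in controls, 12.42, 12.02, and 11.77 in OIR, and 11.83, 12.42, and 12.23 in treated OIR mice, in the same order of mice. Each group spanned nearly the same range. Gngt1 was 9.73, 9.59, and 10.19 in controls, 9.85, 9.86, and 9.58 in OIR, and 9.37, 9.93, and 9.59 in treated OIR mice. Control mouse 7 was the highest and treated OIR mouse 2 the lowest for this gene. Against control, Gnb1 had a log2 fold change of −0.05 in OIR (interval −0.59 to 0.50) and 0.04 in treated OIR mice (interval −0.51 to 0.59). Gngt1 had −0.09 (interval −0.54 to 0.36) and −0.21 (interval −0.66 to 0.24), and neither gene passed the test.

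**Figure D1:**
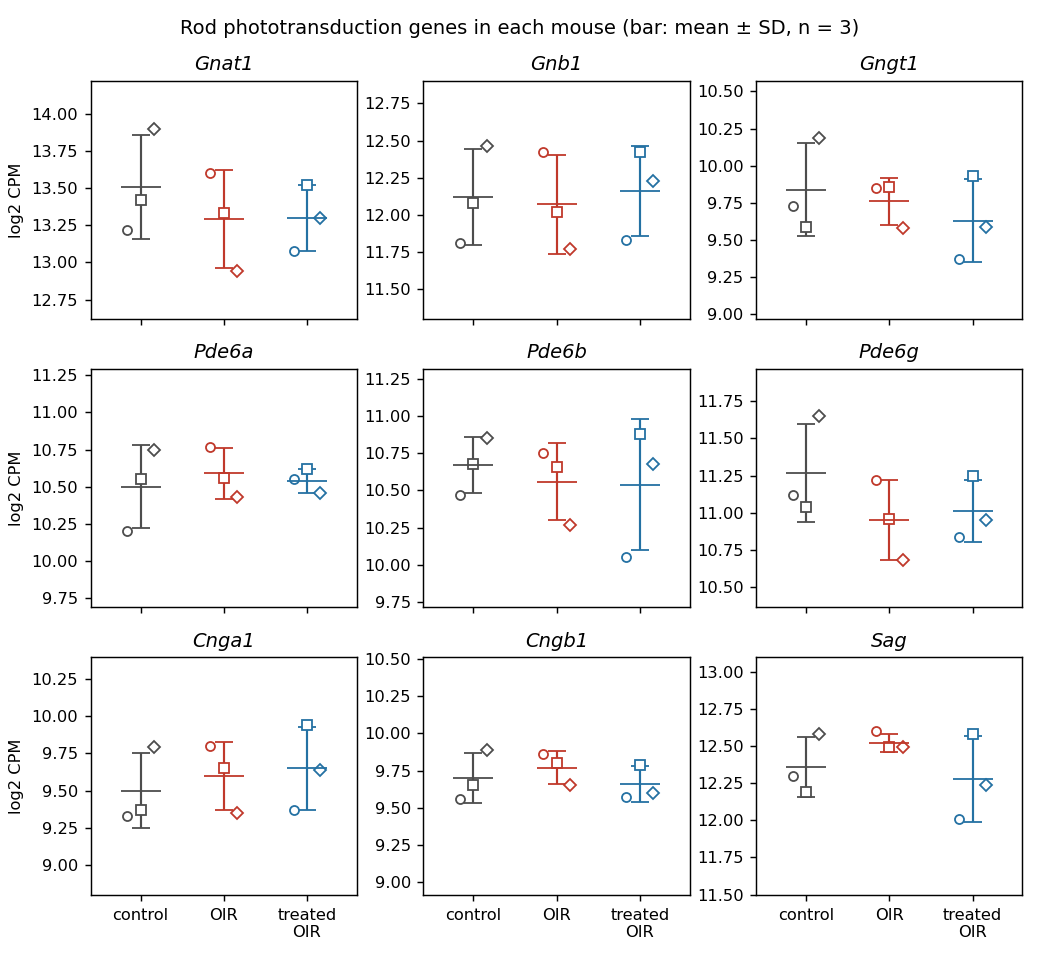
Log2 CPM of each rod phototransduction gene in every mouse (circle, square, and diamond are the 3 mice of a group in the order of their numbers), with the mean and SD of each group, n = 3. Each panel spans 1.6 log2 units around its own centre, and the 3 groups overlap in all 9 panels.

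Among the phosphodiesterase subunits, Pde6g had the largest difference in OIR against control of the 9 genes, and it too overlapped. Pde6g was 11.12, 11.04, and 11.65 log2 CPM in controls, 11.22, 10.96, and 10.68 in OIR, and 10.84, 11.25, and 10.95 in treated OIR mice. OIR mouse 3 lay above control mice 1 and 6, while the other OIR mice lay below all controls. Its log2 fold change was −0.32 in OIR (SE 0.22, interval −0.81 to 0.17, adjusted p = 0.396) and −0.27 in treated OIR against control (SE 0.22, interval −0.76 to 0.22, adjusted p = 0.523), and 0.06 in treated OIR against OIR (interval −0.43 to 0.54). The fitted difference of −20.1% in OIR mice was thus within the spread between mice.

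The catalytic subunits differed less between group means. Pde6a was 10.20, 10.55, and 10.75 log2 CPM in controls, 10.77, 10.56, and 10.43 in OIR, and 10.55, 10.62, and 10.46 in treated OIR mice, with the smallest SD in the treated group (0.08). Pde6b was 10.47, 10.68, and 10.85 in controls, 10.75, 10.66, and 10.27 in OIR, and 10.05, 10.88, and 10.68 in treated OIR mice, where treated OIR mouse 2 was the lowest of the 9 and treated OIR mouse 5 the highest. For Pde6a the log2 fold changes were 0.08 (OIR against control), 0.03 (treated OIR against control), and −0.05 (treated OIR against OIR), and for Pde6b they were −0.10, −0.10, and 0.00. The 95% interval of Pde6b in treated OIR against OIR reached from 0.699 to 1.43 on the fold scale.

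The channel subunits overlapped between groups as well. Cnga1 was 9.33, 9.37, and 9.79 log2 CPM in controls, 9.80, 9.65, and 9.35 in OIR, and 9.37, 9.94, and 9.64 in treated OIR mice. Cngb1 was 9.56, 9.65, and 9.89 in controls, 9.86, 9.80, and 9.65 in OIR, and 9.57, 9.79, and 9.60 in treated OIR mice. Cngb1, the least variable of the 9 genes, had log2 fold changes of 0.07 (OIR against control, interval −0.24 to 0.37), −0.05 (treated OIR against control, interval −0.35 to 0.25), and −0.11 (treated OIR against OIR, interval −0.42 to 0.19). Cnga1 had 0.10, 0.15, and 0.05 in the same comparisons. With limma-voom and sample quality weights Cnga1 in treated OIR against control was 0.37 with an adjusted p of 0.137, the lowest adjusted p of any of the 9 genes in any comparison and analysis.

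Sag, the arrestin, was 12.30, 12.19, and 12.58 log2 CPM in controls, 12.60, 12.49, and 12.49 in OIR, and 12.01, 12.58, and 12.24 in treated OIR mice. The OIR mice were close to each other (SD 0.06) and stood at the upper end of the control range, while the treated OIR mice spread over the whole range. Its log2 fold change of −0.23 in treated OIR against OIR (SE 0.18, interval −0.64 to 0.18) was the largest of the 9 in that comparison, with an adjusted p of 1 and an unadjusted p of 0.24. Its change in OIR against control was 0.16 (SE 0.18, interval −0.26 to 0.57, adjusted p = 0.643).

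Counted over the 9 genes, 0 had an adjusted p below 0.05 with edgeR in OIR against control, where 0.941% of the 17540 genes tested did, 0 in treated OIR against control (0.0228% of all genes), and 0 in treated OIR against OIR (0.0% of all genes). At an unadjusted p below 0.05 the counts were also 0 of 9 in each, against 23.8%, 18.6%, and 4.69% of all genes. Groups that did not overlap were found for 0 of 9 genes in each comparison, against 33.0%, 25.0%, and 9.13% of all genes. With DESeq2 on the 2 groups compared 0 of 9 passed, against 15.6%, 2.21%, and 0.431% of all genes, and with limma-voom 0 of 9, against 13.1%, 5.28%, and 0.0057%. With so few genes, a count of 0 of 9 by the adjusted p lies near these shares and is not by itself a result about the rod phototransduction genes.

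The directions were mixed. In OIR against control 4 of the 9 genes lay above 0 and 5 below, with a median log2 fold change of −0.05 beside 0.03 over all genes tested. In treated OIR against control 3 lay above and 6 below (median −0.07, all genes 0.01), and in treated OIR against OIR 4 lay above and 5 below (median 0.00, all genes 0.01). The 95% intervals of all 9 genes together reached from 0.569-fold to 1.48-fold, from 0.587-fold to 1.51-fold, and from 0.64-fold to 1.55-fold in these comparisons. A change of 2-fold in either direction thus lay outside the interval of every gene, and changes smaller than these intervals could not be told from none with 3 mice per group.

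**Figure D2:**
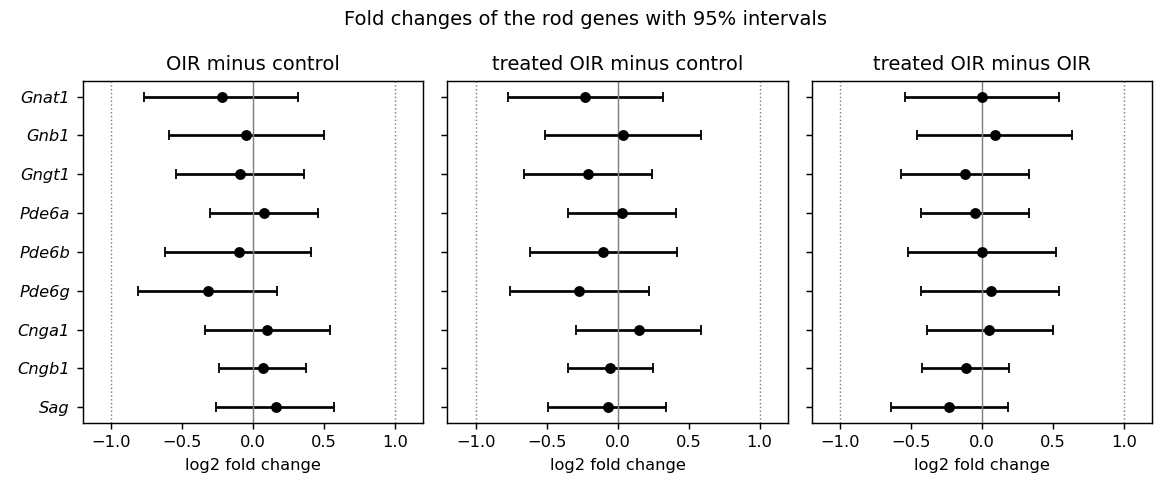
Log2 fold change of each rod gene (point) with its 95% interval (bar) from edgeR's quasi-likelihood fit of all 9 mice, in the 3 comparisons. Dotted lines mark a log2 fold change of 1 in either direction, and every interval holds 0 and stays inside the dotted lines.

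The 9 genes varied together from mouse to mouse within a group. Control mouse 7 was the highest of the controls for 9 of 9 genes, OIR mouse 3 the highest of the OIR mice for 8 of 9, and treated OIR mouse 5 the highest of the treated OIR mice for 9 of 9. The lowest were control mouse 1 for 6 of 9 genes, OIR mouse 6 for 8 of 9, and treated OIR mouse 2 for 8 of 9. The share of all genes with the same order of mice was not counted, so this order is not shown to be particular to the rod genes. Control mouse 7 was also the highest control for each of 5 ganglion cell markers, though not for each of 5 Müller glia markers. The mean log2 CPM over the 9 genes was 10.86, 10.95, and 11.34 in controls, 11.21, 11.04, and 10.80 in OIR, and 10.74, 11.22, and 10.97 in treated OIR mice. The group means were 11.05 ± 0.26, 11.01 ± 0.21, and 10.97 ± 0.24 (SD, n = 3), so that they differed by less than the spread inside any group.

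Of genes outside the 9 with a mean log2 CPM of at least 1, those whose log2 CPM followed this mean most closely over the 9 mice were Fscn2 (Pearson r 0.976, Spearman rho 0.967), Pdc (r 0.969, rho 0.983), Lcmt2 (r 0.959, rho 0.983), Zfp787 (r 0.953, rho 0.95), and Nrl (r 0.949, rho 0.933). Fscn2 encodes a photoreceptor actin bundler, Pdc encodes phosducin, which binds the beta and gamma subunits of transducin, and Nrl encodes the transcription factor that sets rod fate. Lcmt2 and Zfp787 are in none of the rod, cone, or marker lists used here, so the likeness is not limited to rod genes. Without the 2 mice farthest from the median, r over the other 7 was 0.961, 0.962, 0.926, 0.903, and 0.896 in the same order. These are the highest among the 13978 genes that reached this mean log2 CPM, with the 9 rod genes themselves left out of the ranking. All values share the same libraries and their scaling, and they are given as a description.

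A balance within each mouse was computed after the values were seen, as the log2 CPM of a gene less the mean of the 9 genes in that mouse. This takes away what the 9 genes share. On this scale Cnga1 was −1.53, −1.58, and −1.55 in controls, −1.41, −1.38, and −1.44 in OIR, and −1.37, −1.28, and −1.33 in treated OIR mice, and no group overlapped another. Its means differed by 0.14 (OIR above control), 0.23 (treated OIR above control), and 0.09 (treated OIR above OIR). Pde6g was 0.26, 0.08, and 0.31 in controls, 0.02, −0.08, and −0.12 in OIR, and 0.10, 0.04, and −0.02 in treated OIR mice. The OIR mice all lay below the controls, by 0.28 in the mean, and the treated OIR mice overlapped both groups.

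Gnat1 was lower on this scale in all treated OIR mice (2.34, 2.31, and 2.34) than in all controls (2.36, 2.47, and 2.55). Sag was lower in all treated OIR mice (1.27, 1.36, and 1.27) than in all OIR mice (1.39, 1.45, and 1.69). In each comparison 2 of 9 genes did not overlap, 1 higher and 1 lower. All genes tested, less the same mean, did not overlap in 21.2% (OIR against control), 13.8% (treated OIR against control), and 4.73% (treated OIR against OIR) of cases. Each of the 9 genes is part of that mean, so a higher value of 1 lowers the others, and it loses the spread that the 9 share. Most other genes are not part of it, so the counts cannot be compared with these shares. Each of the 6 differences without overlap had the smallest p that 3 mice against 3 allow (two-sided exact permutation test, p = 0.1), and the adjusted p over 27 tests was 0.45. The sizes are small, at most 0.28 log2 units, and none passed the test.

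**Figure D3:**
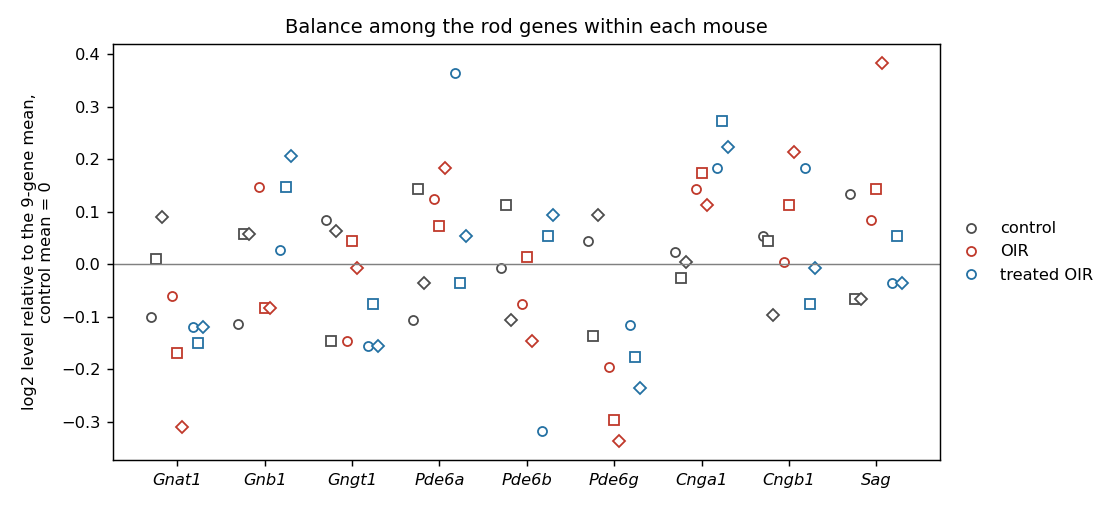
Log2 level of each rod gene relative to the mean of the 9 genes in the same mouse, set to 0 at the control mean (circle, square, and diamond are the 3 mice of a group in the order of their numbers). The 3 groups of Cnga1 do not overlap, with control lowest and treated OIR highest, though OIR and treated OIR mice nearly touch. OIR mice stand below the controls for Pde6g. None of these differences passed the exact permutation test (adjusted p = 0.45).

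Cones use a parallel set of proteins, and a ratio of a rod gene to its cone counterpart inside 1 library does not depend on scaling between libraries. Gnat1 against Gnat2, the cone alpha transducin, had log2 count ratios of 5.93 to 6.22 in controls, 5.91 to 6.09 in OIR mice, and 6.02 to 6.11 in treated mice, with means of 6.04, 6.00, and 6.05. For Cnga1 against Cnga3 the means were 5.17, 5.13, and 5.27, and for Cngb1 against Cngb3 they were 5.50, 5.43, and 5.49. These ratios overlapped in all comparisons.

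Of the 3 phosphodiesterase ratios, 2 lay below all controls in both OIR groups and 1 overlapped, in a test that cannot pass the threshold with 3 mice per group. Pde6b against Pde6c, the catalytic subunit of cones, was 4.05, 4.02, and 4.30 in controls, 3.61, 3.91, and 3.65 in OIR, and 3.44, 3.93, and 3.83 in treated OIR mice. Every OIR and treated OIR mouse lay below every control, by 0.40 and 0.39 log2 units in the mean. Pde6g against Pde6h, the cone gamma subunit, was 3.88, 3.79, and 4.06 in controls, 3.48, 3.70, and 3.63 in OIR, and 3.38, 3.70, and 3.75 in treated OIR mice, again without overlap with the controls and 0.30 lower in both. Both comparisons use the same 3 control mice. For Pde6a against Pde6c the means were 3.96, 3.75, and 3.74, with overlap.

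Over all pairs, 2 of 9 ratios were free of overlap in OIR against control and 2 of 9 in treated OIR against control. The ratios of all genes tested to the same cone genes were free of overlap in 25.5% and 18.0% of cases, so the counts lie near the background. For single cone genes the share was 29.0% with Pde6c and 16.6% with Pde6h in OIR against control, and 27.2% and 14.7% in treated OIR against control. In each of the 4 differences without overlap the two-sided exact permutation test gave p = 0.1, the smallest possible, and the adjusted p over 27 tests was 0.675. Either gene can move a ratio, and the 2 pairs differed in which gene had the larger fold change. Pde6c had a log2 fold change of 0.31 in OIR against control (SE 0.15, adjusted p = 0.25) and 0.26 in treated OIR against control (adjusted p = 0.369), and Pde6b −0.10 in both. In the other pair Pde6h was at 0.01 and 0.04 and Pde6g at −0.32 and −0.27. In treated OIR against OIR 0 of 9 ratios were free of overlap (4.6% of the ratios of all genes), and the lowest exact p was 0.3 (adjusted p = 0.9).

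Wider spreads marked the other ratios. Gnb1 against Gnb3 was 2.61, 3.23, and 3.63 in controls, 3.0, 2.29, and 1.68 in OIR, and 1.49, 3.48, and 3.65 in treated OIR mice. Gnb3 itself, the cone beta subunit that ON bipolar cells also use, was 224.0, 175.0, and 173.0 RPKM in controls, 259.0, 322.0, and 415.0 in OIR, and 491.0, 187.0, and 146.0 RPKM in treated OIR mice, and its log2 fold change of 0.80 in OIR against control did not pass (SE 0.41, adjusted p = 0.27). Treated OIR mouse 2, the mouse with lens reads, was the highest of the 9 for Gnb3. The ratio of Sag to Arr3, the cone arrestin, spanned 5.33 to 6.90 in OIR mice and 5.58 to 6.67 in treated OIR mice, with means of 5.86 in controls, 6.10 in OIR, and 6.05 in treated OIR mice. Gngt1 against Gngt2 had means of 3.44, 3.56, and 3.67. Of the 8 cone counterparts 0 passed the test in any comparison, with medians of 0.09 (OIR against control), 0.01 (treated OIR against control), and −0.14 (treated OIR against OIR).

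**Figure D4:**
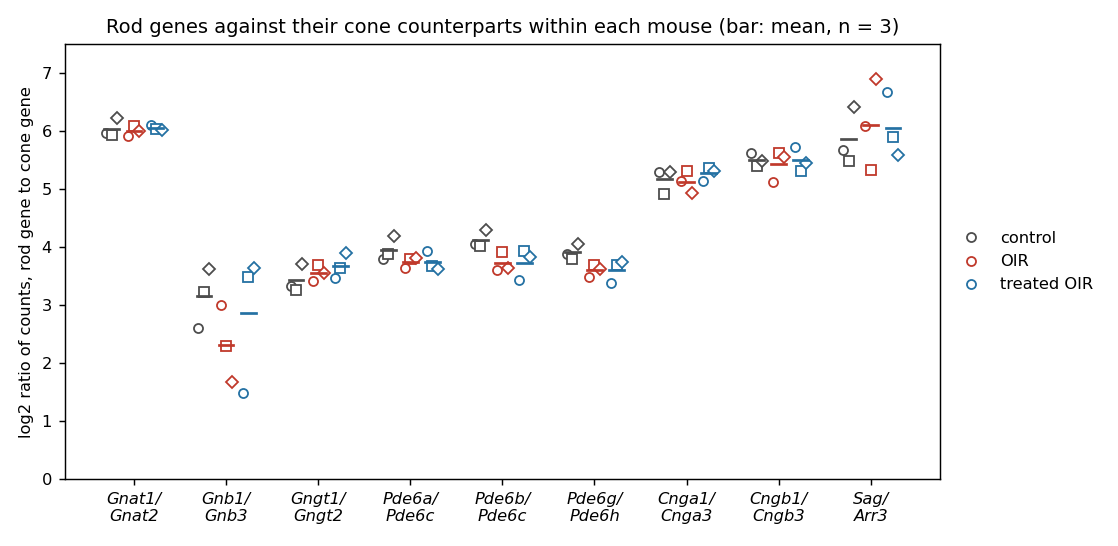
Log2 ratio of raw counts (0.5 added to each) of every rod gene to its cone counterpart in each mouse (circle, square, and diamond are the 3 mice of a group in the order of their numbers), with the mean of each group, n = 3. Pde6b/Pde6c and Pde6g/Pde6h are lower in all OIR and treated OIR mice than in the controls, and Gnat1/Gnat2 stays near 6 in every mouse.

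Other proteins of the rod response were read from a list of 15 partners, which holds the rhodopsin kinase, the guanylate cyclases and their activating proteins, the proteins that end the transducin signal, and trafficking factors. Of these 15, 0 passed the test in OIR against control (8 above 0, 7 below, median 0.03), 0 in treated OIR against control (7 above, 8 below, median −0.02), and 0 in treated OIR against OIR (5 above, 10 below, median −0.03). The lowest p-values in OIR against control belonged to Guca1a and Guca1b, whose proteins activate guanylate cyclase when calcium falls and so restore cyclic GMP after a flash. Guca1a was 8.74, 9.10, and 9.37 log2 CPM in controls, 7.98, 8.16, and 7.61 in OIR, and 7.30, 8.36, and 7.77 in treated OIR mice, and every OIR and treated OIR mouse lay below every control. Its log2 fold change was −1.16 in OIR against control (SE 0.27, adjusted p = 0.0676) and −1.22 in treated OIR against control (SE 0.27, adjusted p = 0.112). Over all genes tested, groups did not overlap for 33.0% in OIR against control and 25.0% in treated OIR against control. A lack of overlap is thus common and is not by itself a result about a single partner. Other partners also did not overlap in OIR against control, some lower and some higher in OIR mice.

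Guca1b was 10.31, 10.56, and 10.81 log2 CPM in controls, 10.06, 10.07, and 9.47 in OIR, and 9.64, 10.25, and 9.86 in treated OIR mice. It was again lower without overlap, with a log2 fold change of −0.68 in OIR against control (SE 0.22, adjusted p = 0.121) and −0.63 in treated OIR against control (SE 0.22, adjusted p = 0.206). Neither gene passed the threshold with edgeR on all 9 mice and the main filter on low counts, while without that filter Guca1a passed in OIR against control (adjusted p = 0.0344). Guca1a passed it in OIR against control in 6 of 19 other analyses, the lowest adjusted p being 2.64e-08 with DESeq2 on the 2 groups, and Guca1b in 4 of 19. In treated OIR against control Guca1a passed in 3 of 19 (lowest adjusted p = 0.00117, DESeq2 on all mice) and Guca1b in 0 of 19. Treated OIR mouse 2 entered the comparison of OIR with control through the shared estimate of spread, and without it the adjusted p was 0.00847 for Guca1a and 0.0436 for Guca1b. The 9 rod genes passed in 0 of the 19.

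A list of 15 rod regulators and outer segment genes held 1 gene past the test in OIR against control, where 0.941% of all genes tested passed. Samd7, a repressor that photoreceptors use to silence genes of other cell types, was 30.8, 31.6, and 38.5 RPKM in controls, 84.1, 70.9, and 78.9 in OIR, and 93.0, 85.4, and 55.4 RPKM in treated OIR mice. It rose in OIR against control by a log2 fold change of 1.21 (SE 0.19, adjusted p = 0.0407), without overlap, as for 33.0% of all genes tested. The change in treated OIR against control was also 1.21 (SE 0.19, adjusted p = 0.102) and did not pass the test, but it passed in 5 of 19 other analyses, with adjusted p from 4.2e-06 (DESeq2 on all mice) to 0.268. The call in OIR against control held in 11 of the 19 other analyses, with adjusted p up to 0.163. It was lost with sex as a covariate and without any 1 of the control mice, any 1 of the OIR mice, or treated OIR mouse 5, while the log2 fold change stayed at 1.15 to 1.33. The list's median was −0.04 in OIR against control, 0.06 in treated OIR against control, and −0.01 in treated OIR against OIR, and 0 of its genes passed in the last of these. Of its genes used to check the tissue, Nr2e3 had a log2 fold change of 0.49 in OIR against control (adjusted p = 0.156). Nrl had −0.18 in that comparison (adjusted p = 0.745).

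Markers of the other cells of the retina are given beside the rod genes as measured. In OIR against control the medians were −2.09 for 5 ganglion cell markers and −1.0 for 5 amacrine markers, with 0 genes past the test in either list, and 0.30 for 5 bipolar markers (0 passed) and 0.45 for 5 Müller glia markers. In the Müller list 4 markers lay above 0 and 1 below. Its median was −0.38 in treated OIR against control, with 2 above and 3 below. Of this list Slc1a3, a glutamate transporter, rose by 0.95 in OIR against control (SE 0.16, adjusted p = 0.0447). That call was also lost without any 1 of the control or OIR mice, without treated OIR mouse 5, with total counts alone, and with sex as a covariate (adjusted p up to 0.18). Medians were 0.67 for the 3 horizontal cell markers in the table of 4 listed, −0.64 for 5 markers of the pigment epithelium, 0.35 for 4 microglia markers, and 1.37 for 5 lens markers, with 0 past the test in each. Summed over the list, ganglion cell markers were at 279.0 to 409.0 RPKM in controls, 23.6 to 126.0 in OIR mice, and 9.52 to 225.0 RPKM with treatment. The value of 9.52 was that of treated OIR mouse 2, the mouse with lens reads, and the other treated OIR mice lay above all OIR mice. Lim2, a lens marker named after its values were seen, was at 0 counts in treated OIR mouse 10, and no other marker was at 0 in any mouse. Lens markers had a median of 8.20 in treated OIR against control, with 0 of 5 past the test and overlapping groups for each. Their summed level was 2.34 to 49600 RPKM in treated OIR mice, the upper end in treated OIR mouse 2, where crystallin genes made up 15.78% of the library. Whether a shift in the makeup of the sample had a part in the rod values was not tested.

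**Figure D5:**
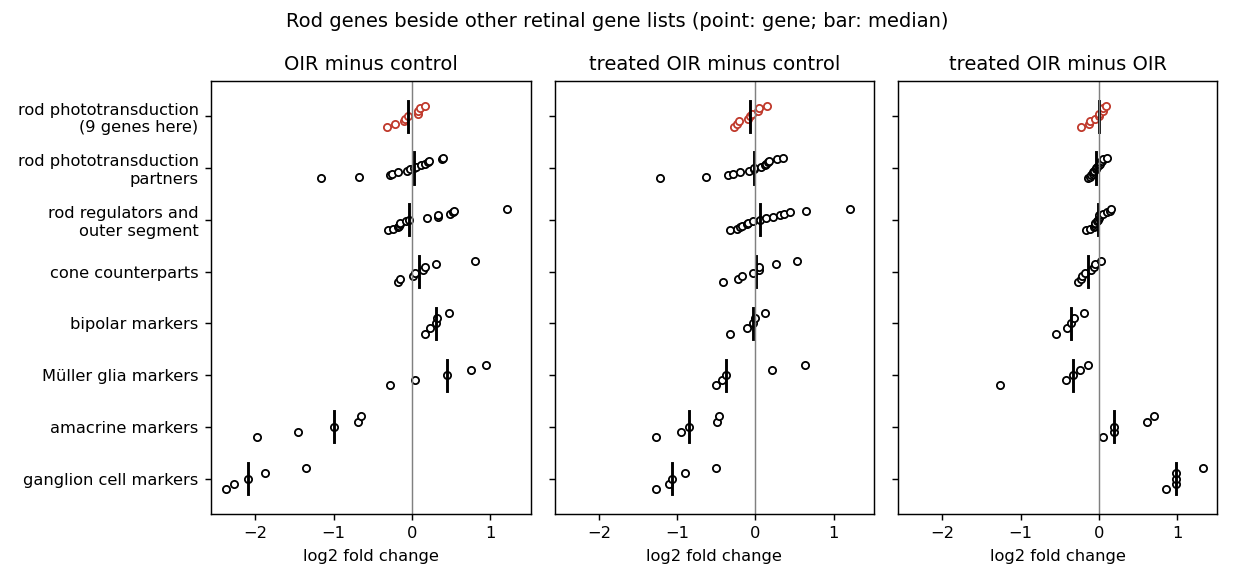
Log2 fold change of each gene (point) in the rod phototransduction genes and other lists, with the list median (bar), in the 3 comparisons. The 9 rod genes lie within −0.32 to 0.16 in OIR against control, while ganglion cell markers have a median of −2.09 and amacrine markers of −1.0.

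Leaving out treated OIR mouse 2 moved single rod genes and made no call. Without it the log2 fold change in treated OIR against OIR was 0.24 for Pde6b (0.00 with all mice), 0.21 for Cnga1 (0.05), and 0.03 for Gngt1 (−0.12). Without control mouse 7, the highest control for all 9 genes, OIR against control turned to 0.15 for Gnb1 (−0.05 with all mice) and 0.11 for Gngt1 (−0.09). In each such case the adjusted p stayed above 0.05.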

How the data were processed

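Retinal RNA of 9 mice was sequenced, and groups were taken from the sample labels. The authors deposited 1 table with unnormalized whole-number counts and a length for each of 54532 genes. The submitters' processing notes name CASAVA and HISAT. The counting tool, genome build, annotation, and strand setting are not given in the sources used here. Coordinates are given on GRCm38, since 98.3% of the 54495 identifiers also in GENCODE M21 lie at the position it gives. Reads of overlapping genes may be split in counting.

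Counts were fitted with edgeR 4.0.16 (R 4.3.3) by the quasi-likelihood test, with TMM scaling and filterByExpr per group (17540 genes left), 1 mean per group over all 9 mice, and Benjamini-Hochberg adjustment over all genes tested. A call is an adjusted p below 0.05. The 95% intervals come from the same fit. RPKM used TMM-scaled library sizes and the deposited gene length. Rod to cone ratios (0.5 added to each count) and the balance within a mouse were tested by exact two-sided permutation over mice, adjusted over 27 tests each. The fits were tested on simulated data. P-values set a difference between groups against the spread between these mice.

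The 9 genes, the other lists, and the tests were chosen with earlier results of these data known. Named are the 9 genes, their cone counterparts, of each other retinal list the genes past the test or else the 2 with the lowest p in OIR against control, and the 5 genes most like the mean of the 9. Of the marker lists of other cell types only genes past the test are named, apart from Lim2, and the rod markers are named as the check of the tissue. Other analyses used DESeq2 1.42.0 (all mice, or the groups compared alone), edgeR with the groups compared alone, voom from limma 3.58.1 with quality weights per sample, other scalings and filters, a required absolute log2 fold change above 1, sex as a covariate (read from Xist and Y chromosome counts, with 1 female control, 1 female OIR, and 2 female treated OIR mice), and leaving out each mouse. Python 3.11.15 with scipy 1.17.1 was used for the permutation tests, and matplotlib 3.10.9 for the figures.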

Additional observations from a re-analysis of the deposited data

How the results depend on the processing

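In all 20 alternative analyses, each mouse left out included, 0 of the 9 rod phototransduction genes were called in any comparison. The lowest adjusted p was 0.257 in OIR against control (Pde6g, DESeq2 on the 2 groups), 0.137 in treated OIR against control (Cnga1, limma-voom), and 0.587 in treated OIR against OIR (Gnb1, limma-voom). The sign of the small fold changes was not stable, and 6, 7, and 7 of the 9 genes turned sign in at least 1 alternative in these comparisons, none past the test on either side. The cause was not tested.

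Over the mice left out in turn, the log2 fold changes that turned sign ranged as follows. In OIR against control they were −0.24 to 0.15 for Gnb1, −0.21 to 0.11 for Gngt1, −0.06 to 0.22 for Pde6a, −0.20 to 0.03 for Pde6b, 0.00 to 0.26 for Cnga1, and 0.00 to 0.17 for Cngb1, the upper ends coming without control mouse 7 except for Pde6b (without OIR mouse 6). In treated OIR against control they were −0.10 to 0.23 for Gnb1, −0.11 to 0.17 for Pde6a, −0.28 to 0.12 for Pde6b, 0.00 to 0.32 for Cnga1, −0.12 to 0.06 for Cngb1, and −0.24 to 0.06 for Sag. In treated OIR against OIR they were −0.16 to 0.17 for Gnat1, −0.05 to 0.28 for Gnb1, −0.28 to 0.03 for Gngt1, −0.13 to 0.05 for Pde6a, −0.18 to 0.24 for Pde6b, −0.07 to 0.20 for Pde6g, and −0.10 to 0.21 for Cnga1.

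With limma-voom the sign turned for Gngt1 in OIR against control (0.06), for Gngt1 (0.08), Pde6b (0.09), Cngb1 (0.05), and Sag (0.17) in treated OIR against control, and for Gnat1 (0.11) and Gngt1 (0.02) in treated OIR against OIR. With total counts alone it turned for Gnb1 in OIR against control (0.03) and for Pde6b (−0.06), Pde6g (−0.03), and Cnga1 (−0.02) in treated OIR against OIR. In that comparison Gnat1 was 0.01 with DESeq2 on the 2 groups and 0.02 without crystallin genes, and Pde6b was −0.01 with upper-quartile scaling and 0.00 without a filter. With each mouse left out in turn, Pde6b against Pde6c stayed lower than control, by 0.31 to 0.49 in OIR mice and by 0.24 to 0.49 in treated OIR mice.

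No paired analysis was possible because the groups share at most 1 replicate number, and the numbers name separate animals. With 3 mice per group the exact permutation test cannot go below p = 0.1, so it cannot pass the threshold and says nothing of the stability of the ratios.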
